A study of Saccharomyces cerevisiae with 9 samples.

Results

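The genes described here are 10 of the 6215 in the deposited table of budding yeast (Saccharomyces cerevisiae) expression, chosen by name for their place in glycerol metabolism and its osmotic control. GPD1 and GPD2 make glycerol 3-phosphate. GUT1 and GUT2 use glycerol. GCY1, DAK1 and DAK2 form a side route through dihydroxyacetone. STL1 and FPS1 move glycerol across the plasma membrane, and HOG1 encodes the kinase of the osmotic response. All 10 were found in the table and all 10 passed the filter on low values, which asked for a 9-library mean of 10 normalized reads or more.

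Polyadenylated RNA had been sequenced from 3 haploid strains with 3 biological replicates each, to compare the wild type with strains that lack eisosome proteins, which shape furrows of the plasma membrane. The wild type was BY4742, with the genotype MATα his3Δ1 leu2Δ0 lys2Δ0 ura3Δ0. The pil1 strain carried the same alleles and lacked PIL1, the main structural protein of eisosomes. The triple mutant lacked SEG1, NCE102 and PIL1. It was also MATα with his3Δ1, leu2Δ0 and ura3Δ0, but its genotype lists LYS2 and MET15 as present, so it differs from the wild type at LYS2 as well as at the 3 deletions. Every culture was grown at 28 °C in synthetic complete medium for 24 h without any treatment during growth, so no osmotic stress was applied. Before lysis, the cells of every library were washed in 10 mM fluoride and azide. The strains share the his3, leu2 and ura3 lesions. The sources used here do not say how many independent clones of a mutant were grown.

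Glycerol is the main compatible solute of yeast. It is made from the glycolytic intermediate dihydroxyacetone phosphate by glycerol 3-phosphate dehydrogenase and a phosphatase, which also reoxidises cytosolic NADH, and it accumulates when the osmolarity of the medium rises. The kinase Hog1 then raises transcription of the synthesis genes and of the glycerol importer, while the channel Fps1 closes. When fermentable sugar runs out, glycerol becomes a carbon source, and the genes of its uptake and use, which glucose represses, are switched on.

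Library depth ran from 21064051 to 27014469 reads, recovered from the normalized values. The deleted genes followed the labels in all 9 libraries. PIL1 had between 18558 and 24847 reads in wild type, 118 to 149 in pil1 and 79 to 87 in the triple mutant, in which SEG1 had 11 to 24 and NCE102 122 to 223. LYS2 had 0 reads in each of the 6 wild type and pil1 libraries and at least 21787 in each triple mutant library. Of the genes specific to MATα cells, MF(ALPHA)1 had 1877 to 8536 normalized reads over the 9 libraries, STE3 1664 to 2637 and MF(ALPHA)2 182.1 to 363.9. Of those specific to MATa cells, MFA1 had 13.6 to 155, MFA2 54.4 to 92.0 and STE2 257.1 to 872.0, so STE2 was above MF(ALPHA)2 in wild type and pil1. In each strain 1 library stood apart from the others. Triple mutant replicate 1 did so most: its counts differed from replicates 2 and 3 with a chi-square per degree of freedom of 396.5 and 311.9, against 52.2 between replicates 2 and 3. In wild type it was replicate 2 (191.3 and 150.4, against 68.1 between replicates 1 and 3), and in pil1 also replicate 2 (146.2 and 102, against 36.1). Results that rest on any of them are given with and without it.

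In the triple mutant, transcripts for the import of glycerol and for the main route of its use rose. Those for its synthesis, GPD1 and GPD2, fell against wild type, but less firmly. Of 22 alternative analyses, 16 kept the GPD1 call and 21 that of GPD2, and neither gene passed the test against pil1. STL1, GUT1, GCY1, GUT2 and DAK1 rose against wild type, by between 2.20-fold and 11.1-fold. DAK2 fell 3.15-fold, and GPD1, GPD2 and HOG1 fell by 1.47-fold or less. FPS1 did not pass the test. By limma on log2(normalized reads + 1), with calls at a Benjamini-Hochberg adjusted p under 0.05 over all 5886 genes tested, 9 of the 10 were called. The triple mutant differed broadly from wild type, and 60.9% of all genes tested were called, 30.1% higher and 30.9% lower. A change of at least 2-fold was less common, at 19.9% of all genes and 6 of these 10 genes. The median log2 fold change was 0.68 over the 10 genes and -0.01 over all genes tested. Without triple mutant replicate 1, 8 of the 10 were called, 5 higher and 3 lower, and GPD1 was the call lost. Of all 5886 genes tested, 3491 were called in that fit. In the pil1 strain none of the 10 was called. As the RNA came from whole cultures, fewer cells with a transcript and less of it per cell cannot be told apart.

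**Figure D1:**
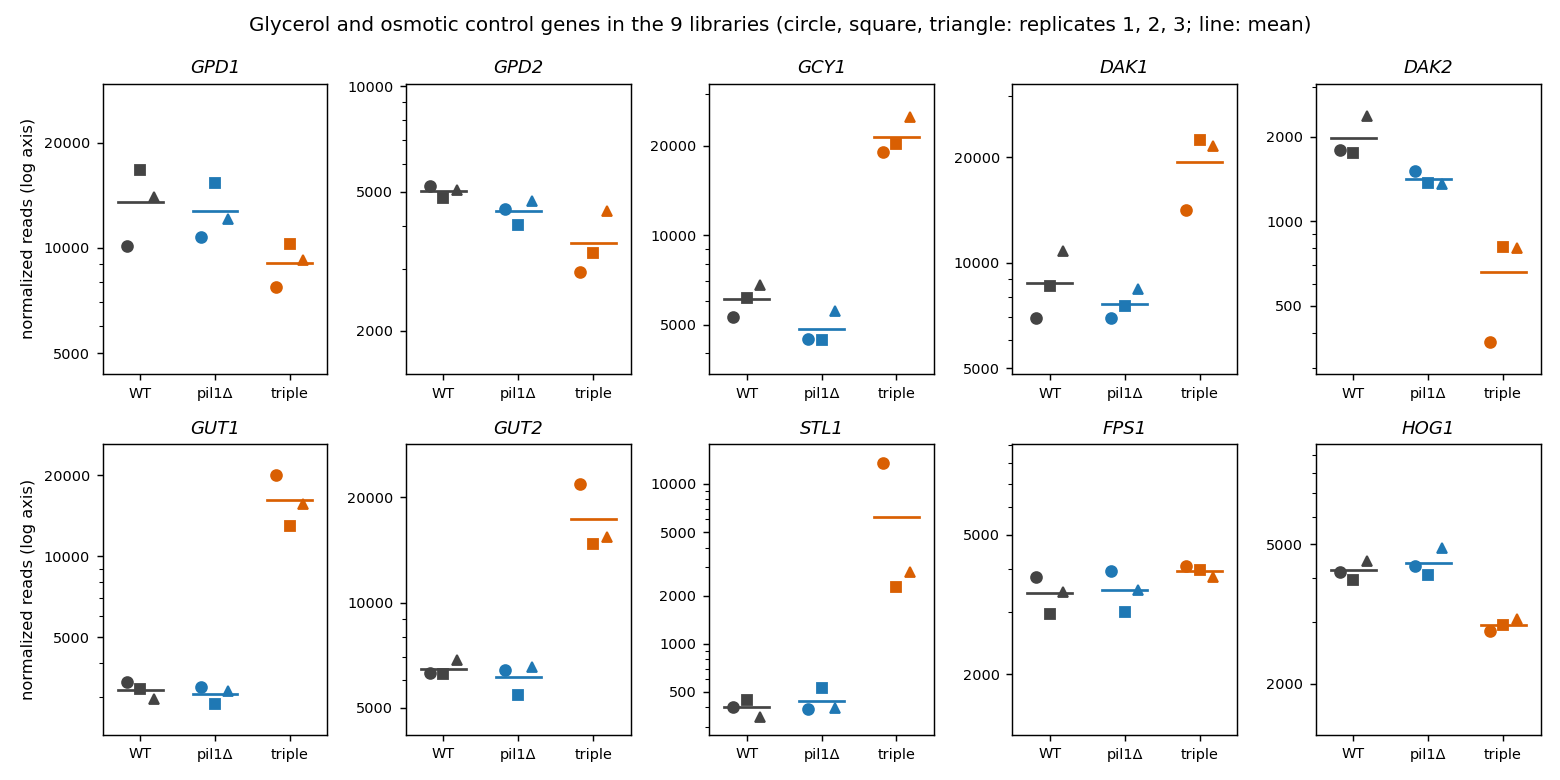
Normalized reads (log axis) of the 10 genes in each library, by strain, with replicates 1, 2 and 3 as circle, square and triangle and the group mean as a line. STL1 in triple mutant replicate 1, at 13580, lies far above the 2280 and 2828 of the other triple mutant libraries.

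Levels of different genes were compared per kb of coding length. In wild type the order ran from GPD1, at 11531 ± 2802 normalized reads per kb (mean ± SD, n = 3), down to STL1, at 233.9 ± 28.0. Between them stood GCY1 at 6480 ± 813, DAK1 at 4999 ± 1096, GPD2 at 3789 ± 158, GUT2 at 3308 ± 174, HOG1 at 3222 ± 202, FPS1 at 1692 ± 202, GUT1 at 1495 ± 108 and DAK2 at 1115 ± 196. Of these neighbours in the order, GCY1 and DAK1, GUT2 and HOG1, and FPS1 and GUT1 overlapped in their libraries, and the other neighbours did not. The pil1 strain had the same order except that HOG1, at 3388 ± 303 per kb, stood before GPD2 and GUT2, and those 3 genes overlapped in neighbouring pairs.

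The order in the triple mutant was different. GCY1 led at 22827 ± 3293 normalized reads per kb and overlapped no other gene of the set. DAK1 at 11047 ± 2591, GUT2 at 8872 ± 1993, GPD1 at 7711 ± 1085 and GUT1 at 7607 ± 1669 followed, and each overlapped the next. STL1 came sixth with a mean of 3643 ± 3726 per kb, which replicate 1 sets at 7941, against 1334 and 1654 in replicates 2 and 3. Without replicate 1, STL1 had a mean of 1494 per kb and came after GPD2, HOG1 and FPS1, and GPD1, at 8287, came before GUT2, at 7727. GPD2 at 2696 ± 573, HOG1 at 2250 ± 89.1, FPS1 at 1963 ± 72.8 and DAK2 at 372.5 ± 142 closed the order. GPD1, which held the first place in wild type, stood behind GCY1 and DAK1 with or without replicate 1, and DAK2 had taken the last place from STL1.

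**Figure D2:**
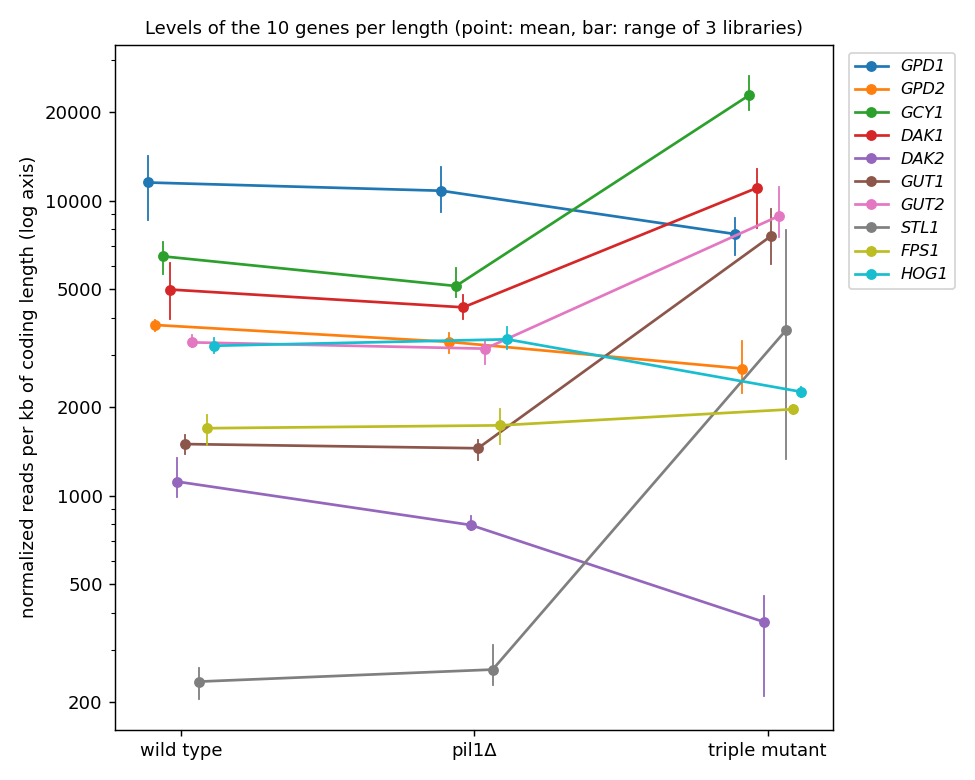
Level of each gene in normalized reads per kb of coding length (log axis) in the 3 strains. Points are group means, joined by a line across strains, and bars are the range of the 3 libraries. GPD1 is highest in wild type and pil1, GCY1 is highest in the triple mutant, and the lowest gene is STL1 in wild type and pil1 and DAK2 in the triple mutant.

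Glycerol synthesis begins with Gpd1 and Gpd2, isozymes of the NAD-dependent glycerol 3-phosphate dehydrogenase. GPD1 is the isozyme induced by osmotic stress, and GPD2 the one known for redox balance without oxygen. With libraries always in replicate order, GPD1 (YDL022W, chromosome IV, 411825 to 413000, plus strand, R64) had 10094, 16652 and 13937 normalized reads in the wild type libraries, against 10736, 15356 and 12057 for pil1 and 7714, 10247 and 9244 for the triple mutant. Its highest triple mutant library lay just above the lowest wild type library, so those groups overlapped, and replicate 2 was the highest library in all 3 strains. The decrease in the triple mutant had a log2 fold change of -0.56 (SE 0.21, limma adjusted p = 0.0418), or 1.47-fold lower.

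The GPD1 call did not hold under every alternative. It was lost with the fit limited to the groups compared (adjusted p = 0.054) and when single libraries were left out. By limma the adjusted p was then 0.13 without wild type 2, 0.104 without wild type 3, 0.0601 without pil1 3, 0.122 without triple mutant 1 and 0.0811 without triple mutant 3. Over all alternatives it ran from 0.00147 to 0.13, and the log2 fold change from -0.79 to -0.40.

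GPD2 (YOL059W, chromosome XV, 217126 to 218448, plus strand) had 5201, 4789 and 5050 normalized reads in the wild type libraries, against 4461, 4021 and 4703 for pil1 and 2944, 3346 and 4411 for the triple mutant. All 3 triple mutant libraries were below all 3 wild type libraries. GPD2 fell by 0.51 on the log2 scale (SE 0.14, limma adjusted p = 0.0111), a 1.43-fold difference. The call was lost only when both wild type 1 and triple mutant 1 were omitted, at a log2 fold change of -0.36 and an adjusted p of 0.0749.

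The coding sequences of GPD1 and GPD2 are 75.4% identical, with no shared run longer than 25 bases. How reads that match both were treated was not stated in the sources used here. None of the 10 genes overlaps another annotated gene, and each has a single coding exon.

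The second step, removal of the phosphate, is carried by the phosphatases Gpp1 and Gpp2, which are outside the 10 genes but belong to the same step. GPP1 had 37167, 12117 and 38817 normalized reads in the wild type libraries, against 33916, 13899 and 29029 for pil1 and 2823, 1930 and 2607 for the triple mutant. It fell 10.7-fold against wild type (log2 change of -3.42 with SE 0.47, limma adjusted p = 0.000263), and the triple mutant libraries lay far below the other 6. Without wild type 2, the lowest wild type library, the decrease of GPP1 was 15.7-fold. GPP2, the isozyme more responsive to osmotic stress, had 25695, 6920 and 31337 in wild type, 26169, 8475 and 24159 for pil1 and 3346, 5977 and 8768 for the triple mutant.

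Replicate 2 was low for both phosphatase genes in wild type and pil1, and GPP2 in wild type 2 lay inside the triple mutant range. GPP2 was called lower by 3.17-fold (log2 change of -1.66 with SE 0.64, limma adjusted p = 0.0472), but this call was lost under 9 of 22 alternatives, such as without triple mutant 1 (adjusted p = 0.152) or triple mutant 2 (0.0901). It was also lost without wild type 1 (0.145), wild type 3 (0.155), pil1 1 (0.0587) or pil1 3 (0.0604), with no filter (0.0521), with only the groups compared (0.0575), and without wild type 1 and triple mutant 1 (0.313). Without wild type 2 the decrease was 5.07-fold. GPP1 and GPP2 are 83.2% identical in coding sequence, with a longest shared run of 26 bases, so the split of reads between them is uncertain.

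Glycerol use by the main route starts with glycerol kinase, Gut1, and continues with Gut2, the mitochondrial FAD-dependent glycerol 3-phosphate dehydrogenase that passes electrons to the respiratory chain. GUT1 (YHL032C, chromosome VIII, 36379 to 38508, minus strand, R64) had 3406, 3200 and 2946 normalized reads in the wild type libraries, against 3276, 2819 and 3151 for pil1 and 20027, 13000 and 15581 for the triple mutant. Every triple mutant library was several times above every other library. GUT1 rose 5.02-fold against wild type (log2 change of 2.33 with SE 0.15, limma adjusted p = 4.62e-06), and 4.48-fold without triple mutant replicate 1, its highest library.

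GUT2 (YIL155C, chromosome IX, 51759 to 53708, minus strand) had 6279, 6233 and 6842 normalized reads in the wild type libraries, against 6431, 5452 and 6546 for pil1 and 21766, 14693 and 15441 for the triple mutant. It rose 2.64-fold (log2 change of 1.40 with SE 0.16, limma adjusted p = 7.3e-05), with no overlap between groups. Triple mutant replicate 1 was again the highest, and without it the rise was 2.34-fold.

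The promoters of GUT1 and GUT2 are shown because this pair rose together. Both hold an element read by stress factors, and of the pair only GUT1 holds the core read by factors known for glycerol use. The STRE, AGGGG, is the element of the stress factors Msn2 and Msn4, and the core CATGTG lies within the element bound by Ino2 and Ino4, which act on GUT1. Both strands of the 600 bases before the start codon were searched. Capitals mark the elements in the stretches shown, on either strand (CACATG is CATGTG read on the other strand). Outside its stretch, GUT1 has another STRE, 586 to 582 bases before the start codon, and another CATGTG, 41 to 36 bases before it. The sequences are from the R64 reference genome, chrVIII:38669-38839 for GUT1 and chrIX:53846-53880 for GUT2, both on the minus strand, written 5′ to 3′ toward the gene. The first spans 331 to 161 bases before the start codon and the second 172 to 138.
GUT1: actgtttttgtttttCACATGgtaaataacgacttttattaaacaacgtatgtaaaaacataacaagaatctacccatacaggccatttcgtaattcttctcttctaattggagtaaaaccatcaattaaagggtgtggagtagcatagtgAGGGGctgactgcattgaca
GUT2: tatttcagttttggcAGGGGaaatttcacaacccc

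The side route oxidises glycerol to dihydroxyacetone by Gcy1, a glycerol dehydrogenase of the aldo-keto reductase family, and phosphorylates it by the dihydroxyacetone kinases Dak1 and Dak2. GCY1 (YOR120W, chromosome XV, 551114 to 552052, plus strand, R64) had 5294, 6143 and 6817 normalized reads in the wild type libraries, against 4476, 4426 and 5573 for pil1 and 19024, 20358 and 24920 for the triple mutant. It rose 3.52-fold against wild type (log2 change of 1.81 with SE 0.15, limma adjusted p = 1.59e-05). The lowest triple mutant library was above the highest of the other 6 by more than the spread within any strain.

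The kinase genes moved in opposite directions. DAK1 (YML070W, chromosome XIII, 133475 to 135229, plus strand) had 6960, 8573 and 10790 normalized reads in the wild type libraries, against 6976, 7505 and 8421 for pil1 and 14165, 22467 and 21529 for the triple mutant. It rose 2.20-fold (log2 change of 1.14 with SE 0.21, limma adjusted p = 0.0014), and the groups did not overlap.

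DAK2 (YFL053W, chromosome VI, 23423 to 25198, plus strand) had 1802, 1758 and 2381 normalized reads in the wild type libraries, against 1514, 1364 and 1357 for pil1 and 370.9, 811.9 and 801.6 for the triple mutant. It fell 3.15-fold (log2 change of -1.65 with SE 0.27, limma adjusted p = 0.00075). Triple mutant replicate 1 was the lowest library, and without it the decrease was 2.43-fold. DAK1 and DAK2 are 62.9% identical in coding sequence, with no shared run over 20 bases.

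Stl1 is the proton-coupled glycerol importer of the plasma membrane, known as a target of Hog1 and of the transcription factor Hot1, and repressed by glucose. STL1 (YDR536W, chromosome IV, 1508005 to 1509714, plus strand, R64) had 403.8, 445.8 and 350.4 normalized reads in the wild type libraries, against 390.6, 532.7 and 394.8 for pil1 and 13580, 2280 and 2828 for the triple mutant. All triple mutant libraries were above all others, and the highest was 5.96 times the lowest, the widest spread of any of the 10 genes within a strain. The rise over all libraries was 11.1-fold, with a 95% confidence interval of 4.66-fold to 26.6-fold (log2 change of 3.48 with SE 0.56, limma adjusted p = 0.000604). Without triple mutant replicate 1 it was 6.37-fold (limma adjusted p = 1.62e-05), so the direction and the call do not depend on that library but the size does.

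The promoters of STL1 and GPD1 are shown because, of the 10 genes, they alone hold the Hot1 element, GGGACAAA, within 600 bases before the start codon, and in the triple mutant they moved in opposite directions. Capitals mark the Hot1 element, here on the other strand as TTTGTCCC, and the STRE, as CCCCT. Outside its stretch, GPD1 has another STRE, 34 to 30 bases before the start codon. In STL1 the element and the STRE share 3 bases and form a single run of capitals. The sequences are from the R64 reference genome, plus strand, chrIV:1507810-1507849 for STL1, 195 to 156 bases before the start codon, and chrIV:411480-411593 for GPD1, 345 to 232 bases before it.
STL1: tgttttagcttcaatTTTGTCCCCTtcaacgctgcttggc
GPD1: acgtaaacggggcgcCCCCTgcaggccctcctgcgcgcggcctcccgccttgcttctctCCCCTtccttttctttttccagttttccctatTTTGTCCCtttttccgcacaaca

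Such matches are common, and they describe letters in a window, not bound sites. Of 5902 promoters of this length, 39.9% held the STRE, 1.81% the Hot1 element, 24.8% the carbon source responsive element of the factors Cat8 and Sip4, 16.3% CATGTG and 16.1% TGACGT, the core read by Sko1. Among the 10 genes, 7 held the STRE, 2 the Hot1 element and 3 each of the other patterns. GPD1, GPD2, GCY1, DAK2, GUT1, GUT2 and STL1 were those with the STRE, so genes that rose and genes that fell held it alike. The carbon source responsive element was in GPD1, where one match shares 3 bases with the Hot1 element, and in GCY1 and FPS1. CATGTG was in GPD2, GUT1 and HOG1, and TGACGT in DAK2, GUT2 and STL1.

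Fps1 is the aquaglyceroporin that lets glycerol out of the cell and closes under osmotic stress. FPS1 (YLL043W, chromosome XII, 49938 to 51947, plus strand, R64) had 3785, 2977 and 3440 normalized reads in the wild type libraries, against 3945, 3012 and 3474 for pil1 and 4079, 3968 and 3789 for the triple mutant. The triple mutant libraries lay above the wild type ones, the nearest pair by only a few reads. The log2 fold change against wild type was 0.22, with a 95% confidence interval of -0.05 to 0.49 (limma adjusted p = 0.14), whose upper end is a 1.41-fold rise. Scaling by total reads, under which the median of all genes was -0.23, turned the value to -0.0046.

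Hog1 is the mitogen-activated kinase at the end of the osmotic pathway, controlled mainly by phosphorylation, which RNA does not report. HOG1 (YLR113W, chromosome XII, 371620 to 372927, plus strand) had 4180, 3968 and 4493 normalized reads in the wild type libraries, against 4331, 4095 and 4869 for pil1 and 2831, 2935 and 3064 for the triple mutant. Its triple mutant libraries were close together and below all others. HOG1 fell by 0.52 on the log2 scale (SE 0.09, limma adjusted p = 0.000943), a 1.43-fold difference.

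Triple mutant replicate 1 lay at an end of its group for each of the 10 genes. In a group of 3 only the middle library does not, and the share over all genes tested was not determined. Some of these ends lay close together, with the highest library 1.08 times the lowest for FPS1 and for HOG1. Replicate 1 was the highest of the group for GUT1, GUT2, STL1 and FPS1 and the lowest for GPD1, GPD2, GCY1, DAK1, DAK2 and HOG1. Without it, 8 of the 9 calls held in the same direction, with DAK1 at 2.55-fold and GCY1 at 3.72-fold higher, and log2 changes of -0.38 for GPD2 and -0.49 for HOG1.

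**Figure D3:**
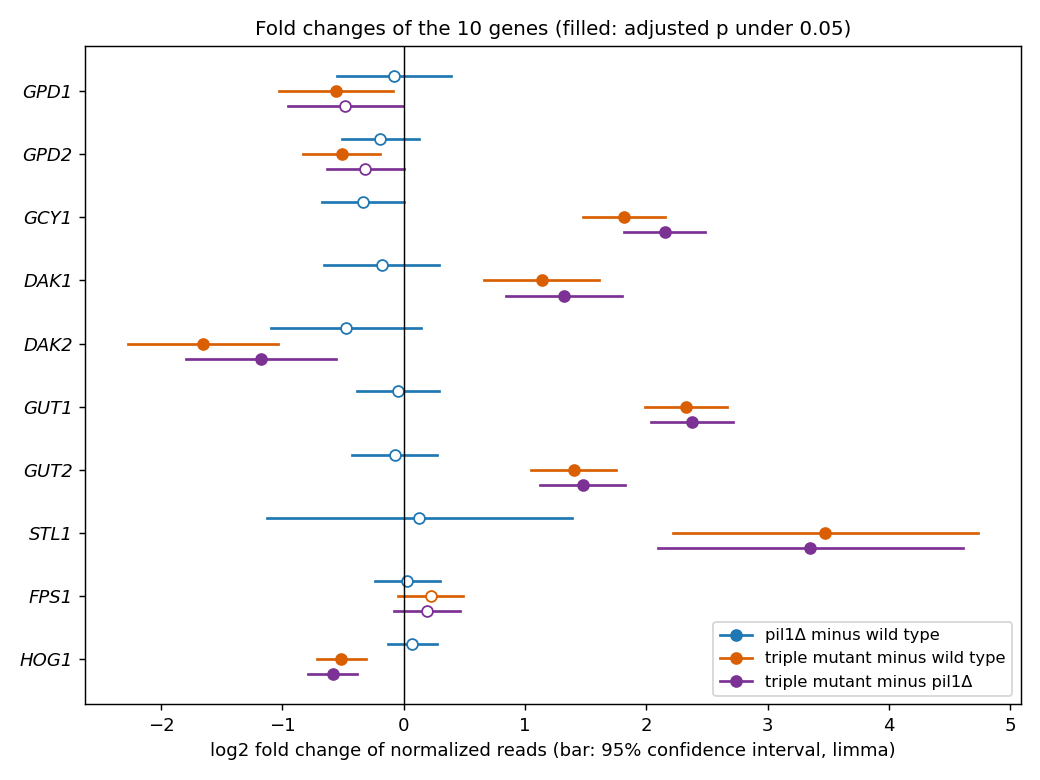
Log2 fold changes of normalized reads for the 10 genes in the 3 comparisons, with 95% confidence intervals from limma as bars and filled symbols for an adjusted p under 0.05. The values against pil1 stand beside those against wild type, from -1.65 for DAK2 to 3.48 for STL1, and the pil1 values against wild type lie between -0.48 and 0.13.

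Ratios within a library set isozymes side by side and do not depend on the scaling of libraries. The isozymes of a step did not all keep their proportion. DAK1 had 4.46 times the reads per kb of DAK2 in wild type (geometric mean, n = 3), 5.46 times in pil1 and 30.9 times in the triple mutant. Its triple mutant libraries, at 38.6, 28.0 and 27.2, lay far above all others, which ran from 3.91 to 6.28. The change from wild type to the triple mutant was 6.93-fold.

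GPD1 over GPD2 stayed near its wild type value. The ratio was 2.98 in wild type, 3.23 for pil1 and 2.88 for the triple mutant, and the libraries of all 3 strains overlapped (difference of triple mutant and wild type -0.05 on the log2 scale, exact two-sided permutation p = 0.9). The wild type libraries alone ran from 2.18 to 3.91, so a change smaller than that spread could not be seen. GUT1 over GUT2 was 0.452 in wild type, 0.460 for pil1 and 0.857 for the triple mutant, a 1.90-fold change with no overlap.

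In the triple mutant GPP2 had more reads per kb than GPP1. GPP1 had 1.46 times the reads per kb of GPP2 in wild type and 1.37 times in pil1, and 0.433 times in the triple mutant, where replicate 1, at 0.844, stood apart from 0.323 and 0.297. The summed use genes GUT1 and GUT2 over the summed synthesis genes GPD1 and GPD2 came to 0.317 in wild type, 0.326 for pil1 and 1.57 for the triple mutant. This is a 4.95-fold change. Triple mutant replicates 1 to 3 stood at 2.34, 1.21 and 1.36. Summed GUT1 and GUT2 thus exceeded summed GPD1 and GPD2 in each of them. They did so in none of the other 6 libraries, whose highest was 0.387. GPP1 and GPP2 do not enter this ratio, so it does not cover all synthesis transcripts.

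With 3 libraries against 3, the exact two-sided permutation test cannot go below p = 0.1, and every ratio whose triple mutant libraries did not overlap wild type or pil1 reached that value. Adjusted by Benjamini-Hochberg over 15 comparisons, 5 ratios in 3 contrasts, it was 0.1875. These ratios were chosen with the fold changes known, so they describe the size and the overlap and do not add support to the calls.

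**Figure D4:**
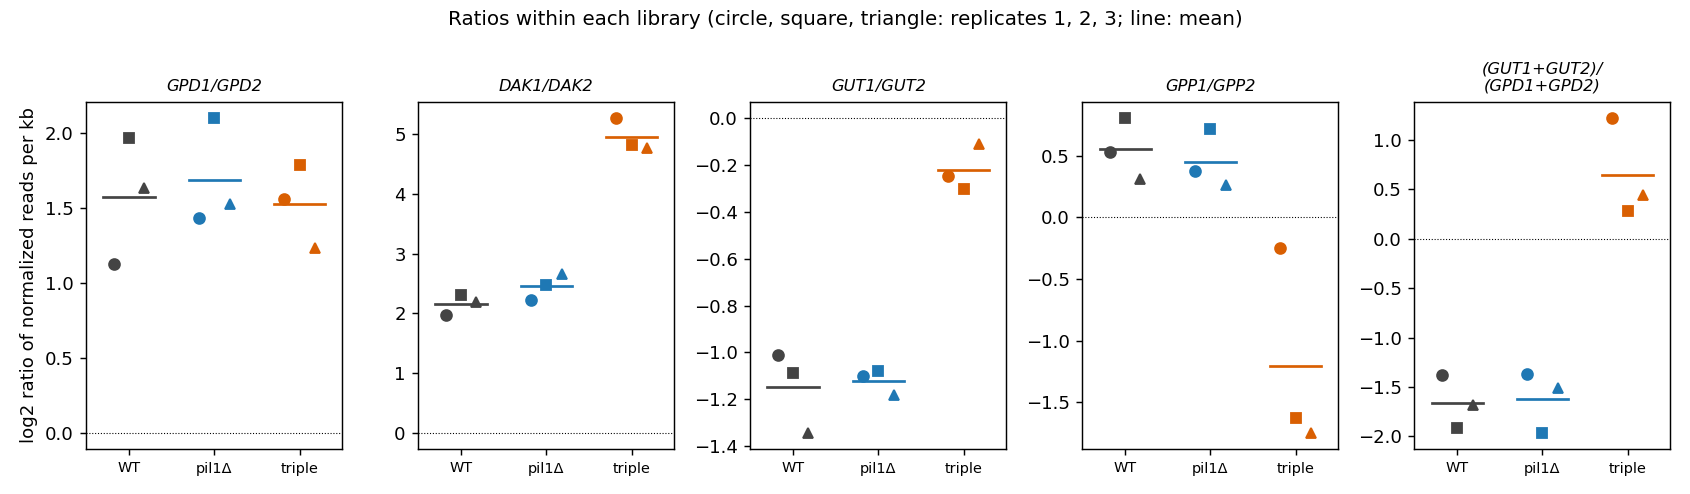
Log2 ratios of normalized reads per kb within each library, by strain, with replicates 1, 2 and 3 as circle, square and triangle and the mean as a line. GPD1/GPD2 overlaps between the strains, and in the other 4 panels the triple mutant libraries lie apart from those of wild type and pil1.

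Loss of PIL1 alone left the 10 genes near wild type. None was called by limma, and of all genes tested 1, or 0.017%, was called. At an unadjusted p under 0.05, limma listed 0 of the 10, edgeR 0 and DESeq2 1, which was GCY1. Of all 5886 genes tested, limma listed 59, edgeR 57 and DESeq2 79. The log2 fold changes ran from -0.48 for DAK2 to 0.13 for STL1, with a median of -0.08, beside 0.01 over all genes tested. The widest 95% confidence interval was that of STL1, from -1.13 to 1.38, so for STL1 it takes in changes of more than 2-fold in either direction.

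A few of the 10 leaned lower in pil1. DAK2 and GPD2 had all 3 pil1 libraries below all 3 wild type libraries, where 2.75% of all genes tested did. The log2 fold change was -0.48 (95% confidence interval -1.10 to 0.14) for DAK2 and -0.19 (-0.51 to 0.12) for GPD2. GCY1 was at -0.34 (-0.67 to 0.00), with pil1 3 inside the wild type range. Within the same-numbered pairs of wild type and pil1 libraries, DAK2, GPD2 and GCY1 were lower in pil1 in 3 of 3 pairs, as were 17.6% of all genes tested. HOG1 and FPS1 were higher in pil1 in 3 of 3 pairs, as were 20.5%. The intervals given here are from the main fit, which has no pairs. With pairs in the fit, none of the 10 was called. At an unadjusted p under 0.05, limma with pairs and only these groups listed DAK2, DAK1, GPD2 and GCY1. That fit listed 826 of all 5886 genes tested. The narrowest interval of the 10 was that of HOG1, from -0.13 to 0.27, and that of GUT1 ran from -0.39 to 0.29.

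Against pil1, the triple mutant again had higher STL1, GUT1, GCY1, GUT2 and DAK1 and lower DAK2 and HOG1. This comparison shares the triple mutant libraries with that against wild type, so the values are given side by side and not as a second test. Here 7 of the 10 were called, 5 higher and 2 lower, where 62.9% of all genes tested were called, 30.8% higher and 32.1% lower. STL1 was 10.2-fold higher (limma adjusted p = 0.000685) and 5.83-fold higher without triple mutant replicate 1. GUT1 was 5.18-fold higher, GCY1 4.44-fold higher, GUT2 2.78-fold higher, and DAK2 2.26-fold lower. HOG1 had a log2 fold change of -0.59. DAK1 had a log2 fold change of 1.32 (SE 0.21, limma adjusted p = 0.00055).

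GPD1 and GPD2 did not pass the test against pil1. GPD1 had a log2 fold change of -0.48 (95% confidence interval -0.95 to -0.01, limma adjusted p = 0.0699), and its groups did not overlap. GPD2 stood at -0.32 (-0.64 to -0.00, adjusted p = 0.0734), and triple mutant 3 lay inside the pil1 range. Of 22 alternatives, 7 called GPD1 lower and 3 called GPD2 lower. Scaling by total reads called both, GPD1 at -0.74 (limma adjusted p = 0.0219) and GPD2 at -0.58 (0.00424). Without triple mutant 3, GPD2 was called at -0.48 (limma adjusted p = 0.0055), and GPD1 was called without wild type 1 (0.0382) or wild type 2 (0.0475). FPS1 was at 0.19 (-0.08 to 0.46).

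The wider pathway was read from 7 lists of 62 other genes, all of which were tested. In the triple mutant against wild type 22 were called higher and 15 lower, a share close to that of all genes tested, and their median log2 fold change was 0.15. In pil1 none of the 62 was called. Of the 37 calls, 14 were lost under at least 1 alternative. The count of each list stands beside 30.1% higher and 30.9% lower over all genes tested, and no list was tested as a set.

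Hog1 signalling, from the sensors to the phosphatases, had 2 genes higher and 7 lower of 21, with a median log2 fold change of -0.08. SHO1, a membrane sensor of the pathway, fell 2.24-fold, from 1004 to 449.4 normalized reads (limma adjusted p = 1.08e-05), and SSK22, a kinase of the Sln1 branch, fell 1.83-fold. RCK2, a kinase that Hog1 phosphorylates, rose 2.16-fold, from 6962 to 15027, and PTC3, a phosphatase that acts on Hog1, 1.78-fold. PBS2, the kinase directly upstream of Hog1, had a log2 change of -0.22 (limma adjusted p = 0.034). That call was lost under 10 of 22 alternatives, among them the omission of any single wild type library (0.0739, 0.0756 and 0.0813).

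All 6 transcription factors that act with Hog1 were called, 4 higher and 2 lower, where 60.9% of all genes tested were called. MSN1 rose 1.37-fold and SKO1 1.26-fold. HOT1, whose product acts on STL1, rose 1.32-fold, from 1592 to 2104 normalized reads (limma adjusted p = 0.00925), and was named after its value was seen. MSN2, for a general stress factor, fell 1.36-fold, and SMP1 fell 1.83-fold. Under scaling by total reads MSN1 (adjusted p = 0.169), SKO1 (0.484) and HOT1 (0.346) were no longer called. MSN4, also among those higher, was lost without wild type 2 (0.0675) or triple mutant 3 (0.0782).

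Genes known to rise under osmotic stress moved unevenly, with 3 higher, 1 lower and 4 not called of 8. SIP18, for a hydrophilin of desiccation tolerance, rose 8.50-fold, from 3023 to 24758 normalized reads (limma adjusted p = 0.000239). GRE1, for another hydrophilin, rose 4.62-fold and HOR7 2.35-fold, while GRE2, a methylglyoxal reductase gene, fell by 1.32 on the log2 scale, from 8628 to 3411. Without wild type 2 the rise was 6.46-fold for SIP18 and 3.63-fold for GRE1. Those not called were CTT1, HSP12, ENA1 and ALD3, named after their values were seen. ENA1, the sodium pump gene, had 1444 normalized reads in triple mutant 1 and 334.6 and 274.4 in the others, against a wild type mean of 277.8.

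Of 11 genes that neighbour the 10 in glycerol formation and movement, 5 were higher and 3 lower. Besides GPP1 and GPP2, ASK10, for a regulator that opens Fps1, fell 1.68-fold, from 12406 to 7501 normalized reads (limma adjusted p = 0.00315). The water channel gene AQY2 rose 2.31-fold and the aquaglyceroporin gene AQY3 1.95-fold, from 3645 to 7284. Of 22 alternatives, 0 lost the call of either. The other higher calls were less stable, lost under 10 for GUP2, 6 for GRE3 and 2 for GUP1. AQY3 is the gene next to DAK2 on chromosome VI, 635 bases away, and DAK2 fell.

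Among 6 regulators of glycerol use, 1 rose and 2 fell. ADR1, for an activator of GUT1 and other genes that glucose represses, rose 6.16-fold, with 32709, 15587 and 16553 normalized reads in the triple mutant libraries and at most 3550 in any other library (limma adjusted p = 3.21e-05). INO2, for an activator that binds CATGTG with Ino4, fell 2.29-fold, and OPI1, for the repressor of that pair, fell 1.88-fold. INO4 had 859.9 normalized reads in the triple mutant and 921.6 in wild type (adjusted p = 0.427), and was called lower without triple mutant 1 (log2 fold change -0.26, limma adjusted p = 0.0182).

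Genes of glycerol 3-phosphate and NADH turnover had 4 of 6 higher and none lower, with a median log2 fold change of 1.00. NDI1, the internal NADH dehydrogenase of mitochondria, rose 6.43-fold, from 4777 to 31426 normalized reads (limma adjusted p = 1.52e-05). NDE1 and NDE2, the external NADH dehydrogenases, rose 3.18-fold and 1.78-fold. Without wild type 2 the rise of NDE1 was 2.26-fold. The NDE1 call was lost without triple mutant 3 (adjusted p = 0.0534) and without both wild type 1 and triple mutant 1 (0.0646). That of NDE2 was lost without wild type 1 (0.0511) and with the pairs of replicate numbers in a fit of only the groups compared (0.0563), and its log2 change ran from 0.43 to 0.99 over the alternatives. GPT2, for an acyltransferase that commits glycerol 3-phosphate to lipids, rose 2.24-fold.

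Of 4 lipase genes, whose products release glycerol or its acylated forms from stored lipid, 3 rose and none fell. YJU3, the monoglyceride lipase gene, rose 1.83-fold, from 3627 to 6607 normalized reads (limma adjusted p = 6.24e-05). TGL5 rose 1.46-fold, and TGL4 by 0.49 on the log2 scale. TGL3 had 6343 and 5607 normalized reads in the triple mutant and wild type (adjusted p = 0.197). Under scaling by total reads TGL4 was no longer called (adjusted p = 0.197) and TGL3 had a log2 fold change of -0.0443.

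**Figure D5:**
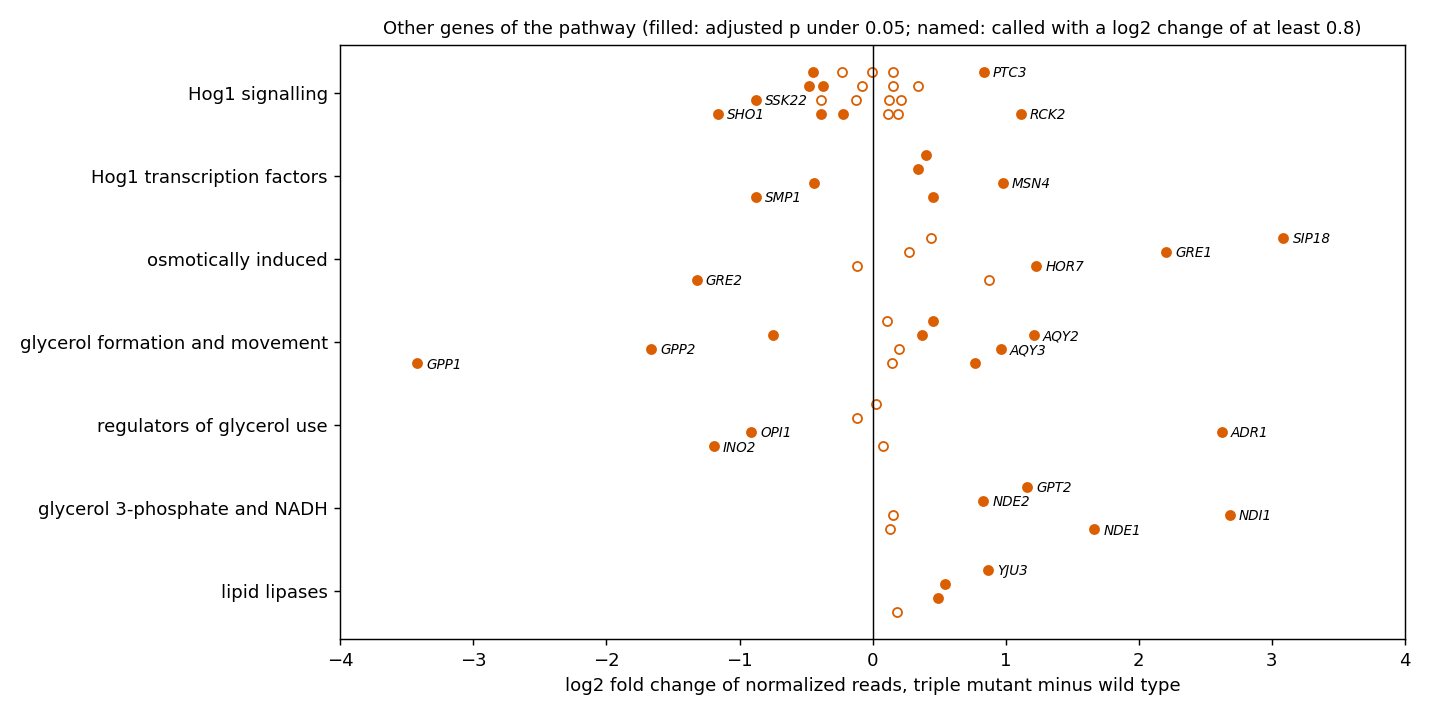
Log2 fold change of normalized reads, triple mutant minus wild type, for the 62 other genes by list, with a point for each gene, filled for an adjusted p under 0.05. The ends of the range are GPP1 at -3.42 and SIP18 at 3.09.

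The genes with the nearest pattern over the 9 libraries were found by the root mean square difference of centred log2 values, for the members called with a log2 change of at least 1. This is a description with no test, and with most of the variance lying between the triple mutant and the other libraries it mainly finds genes with a like change. GUT1 was nearest to COX6, ATP3 and QCR2, at 0.07 to 0.08, where its own spread was 1.12. GUT2 was nearest to JID1 at 0.06 and to IDP1 and SUE1 at 0.09, with an own spread of 0.70. DAK1 was nearest to HSP42, TPS1 and TDA10, at 0.11 to 0.13, and GCY1 to YDR018C, CPR6 and YNL134C, at 0.15 to 0.16. DAK2 had no gene as near, with APE1 at 0.19, PGK1 at 0.20 and SSA2 at 0.24. STL1 was nearest to REG2 at 0.16, and then to GDH3 and CYC1, both at 0.31.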

How the data were processed

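Polyadenylated RNA was sequenced in 9 libraries, 3 per strain, which the labels call biological replicates. Per the labels' protocols, cells were washed in 10 mM fluoride and azide, lysed with glass beads, and poly(A) RNA was selected after DNase treatment. GSNAP, DESeq, DESeq2 and the build R64 are listed in the submitters' processing notes. The sources used here give no counting tool, annotation or strand setting. The main deposited table holds a signal per gene, the read count over a size factor of the library (0.791 to 1.34). In each library 100% of values were whole multiples of the value of 1 read, at a tolerance of 1e-06. The other deposited table holds log2 values after a transformation not named in the sources used here, and served as an alternative.

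The test was limma 3.58.1 in R 4.3.3 (lmFit and robust eBayes with a trend), fitted to log2(value + 1), which understates changes of low genes. All 9 libraries entered, with group as the only term. Genes with a mean of at least 10 were tested, 5886 of 6215. The two-sided p-values were adjusted by Benjamini-Hochberg over all of them. Count tests on the recovered reads, edgeR 4.0.16 and DESeq2 1.42.0, were alternatives, and for triple mutant against wild type called 3604 and 3742 genes where limma called 3586. Scripts were tested on simulated data.

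The 10 genes, the lists and the ratios were chosen with earlier results of these data known. The text names all 10, GPP1 and GPP2, up to 4 genes of each list with the smallest p for triple mutant against wild type, the 3 nearest patterns of each member called with a log2 change of at least 1, and the genes that check the labels. PBS2, HOT1, MSN4, CTT1, HSP12, ENA1, ALD3, GUP1, GUP2, GRE3 and the 6 mating type genes were named after their values were seen. Coordinates and sequence are from the R64 reference annotation, in which 6212 of 6215 identifiers were found. Intervals cover the spread between these libraries. Same-numbered wild type and pil1 libraries deviated together from their group means (correlations of 0.639, 0.834 and 0.579). On that ground they were treated as pairs in the pair counts and the blocked alternatives, but not in the main fit. The labels do not say that a number marks a shared day or batch.

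Alternatives were TMM and total-read scaling, use of the log2 table, no filter, a minimum mean of 50, pseudocounts of 0.5 and 5, only the groups compared, the replicate block in all libraries or only the groups compared, the count tests, each library left out, and wild type 1 and triple mutant 1 left out as a pair. Limiting the blocked fit to the groups compared, and sign flips within pairs for the ratios, were chosen after seeing the data.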

Additional observations from a re-analysis of the deposited data

How the results depend on the processing

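Over 22 alternatives, none of the 10 genes was called in pil1, 8 to 10 in the triple mutant against wild type and 7 to 9 against pil1. Over all genes tested, 3139 to 4024 were called against wild type and 3263 to 4162 against pil1. GCY1, DAK1, DAK2, GUT1, GUT2, STL1 and HOG1 kept direction and call in both triple mutant comparisons. Leaving out single libraries gave 8 to 9 and 7 to 8 calls among the 10, beside 3195 to 3516 and 3263 to 3758 among all genes tested. Genes called in pil1 were 2 by DESeq2 (PIL1 and THI4) and 1 otherwise. Scaling by total reads gave a median log2 fold change of all genes of -0.23 against wild type and -0.27 against pil1, beside -0.01 for each in the main fit. It turned a split of 1770 higher and 1816 lower into 1029 and 2377, and one of 1813 and 1892 into 1023 and 2570. It also turned FPS1 to -0.0046 and -0.0676 and TGL3 to -0.0443, none of them called. These uncalled pil1 values changed sign: leaving out single libraries gave GPD1 -0.2769 to 0.0842, GUT1 -0.1022 to 0.0154, GUT2 -0.1225 to 0.0095, STL1 -0.0197 to 0.2081 and FPS1 -0.0652 to 0.1294, and GUT1 was 0.0024 without wild type 1 and triple mutant 1. The cause was not tested.

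The replicate block, where pil1 and wild type numbers pair, changed no call of the 10 in pil1. By limma the unadjusted p was under 0.05 for 1 of the 10, or for 4 with only the groups compared. Over all 5886 genes tested it was so for 177, or for 826 with only the groups compared. Triple mutant numbers showed weaker correlations (0.0499 to 0.439), though each library matched its own number best. With the replicate block, 4024 genes and all 10 were called against wild type (FPS1 at an adjusted p of 0.0485 by limma). Against pil1, 4162 genes and 9 of the 10 were called (limma adjusted p of 0.00271 for GPD1 and 0.0477 for GPD2). Of the 62 other genes, 31 to 40 were called against wild type. The 15 ratio differences moved by less than the larger SD of the groups compared. The small number of libraries limits the precision to the intervals given.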

Other observations

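A few values fall outside the comparisons. In wild type and pil1, replicate 2 had the highest GPD1, at 16652 and 15356 normalized reads, and the lowest GPP1, at 12117 and 13899, and GPP2, at 6920 and 8475. GPD2 was also lowest in replicate 2, at 4789 and 4021. In the triple mutant, replicate 2 also had the highest GPD1 and the lowest GPP1, and replicate 1 the lowest GPP2. Triple mutant replicate 1 had the highest ADR1 (32709), NDI1 (41416) and SIP18 (34468) of its group as well as the highest GUT1, GUT2 and STL1.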
